A study of Homo sapiens with 6 samples.

Results

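AURKA, AURKB, BIRC5, INCENP, CDCA8 and TPX2 encode both mitotic Aurora kinases, the partners of Aurora B in the chromosomal passenger complex and the activator of Aurora A. They were taken by symbol from the deposited table, where each had 1 row, so that they make 6 of its 23228 gene names. Poly(A) RNA was sequenced from SaOS-2 cells, an osteosarcoma line that lacks RB and p53 and that here carried a Tet-inducible p21 vector in every library. The 3 p21 OFF libraries came from untreated cells and the 3 p21 ON libraries from cells given 1 μg/ml doxycycline for 24 h, and the comparison asks how these genes respond when the CDK inhibitor p21 is induced in cells without RB. No cells given doxycycline without the vector were analysed here, so the drug and p21 cannot be told apart, and whether the line is a single clone is not given in the sources used here.

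Aurora A works at centrosomes and spindle poles, where TPX2 binds it, holds it in its active form and places it on spindle microtubules. Aurora B is the enzyme of the chromosomal passenger complex, in which INCENP is the scaffold and activator while survivin (BIRC5) and borealin (CDCA8) bring the complex to chromatin. The complex corrects faulty attachments of kinetochores to microtubules at centromeres and later moves to the midzone, where it takes part in cytokinesis. Genes of this kind are known as G2/M genes, and MuvB complexes bind many of them at a cell cycle genes homology region (CHR) in the promoter, often close to CCAAT boxes that NF-Y binds.

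The promoters are shown because CHR and CCAAT elements are the sequences through which G2/M genes are known to be controlled. RefSeq promoters (GRCh38.p14) were matched for 3 of the 6 genes, CDCA8, INCENP and AURKB, and the 150 bases upstream of the annotated start are printed from 5′ to 3′ on the strand of the gene. Capitals mark the CHR letters TTTGAA or TTCGAA and the CCAAT box, CCAAT or ATTGG, searched on both strands. AURKB had 2 entries with starts close together, and the one with the more upstream start is shown.
CDCA8, chr1:37692366-37692515, plus strand: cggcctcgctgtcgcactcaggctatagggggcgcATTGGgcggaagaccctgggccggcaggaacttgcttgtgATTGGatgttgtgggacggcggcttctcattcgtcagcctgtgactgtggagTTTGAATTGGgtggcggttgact
INCENP, chr11:62123861-62124010, plus strand: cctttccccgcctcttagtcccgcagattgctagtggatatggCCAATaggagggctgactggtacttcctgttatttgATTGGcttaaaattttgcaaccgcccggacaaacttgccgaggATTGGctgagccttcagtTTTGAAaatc
AURKB, chr17:8210250-8210399, minus strand: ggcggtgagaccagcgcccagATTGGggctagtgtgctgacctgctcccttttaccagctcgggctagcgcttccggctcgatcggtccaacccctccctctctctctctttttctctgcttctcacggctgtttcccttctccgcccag

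CDCA8 held 1 CHR match, whose first base lay 23 bases upstream of the start, and 3 CCAAT matches at 115, 75 and 18 bases. The last of these overlaps the CHR letters, so that both run together in the capitals of the printed sequence. INCENP likewise held 1 CHR match, 10 bases upstream, and 3 CCAAT matches at 107, 71 and 28 bases. AURKB held no match to the CHR letters in either entry and 1 CCAAT match, 129 bases upstream of the start shown. The AURKB starts of these entries were not compared with the start of its canonical transcript. These windows may therefore miss its main promoter, and AURKB cannot be set against CDCA8 and INCENP in this respect. Over the 35116 RefSeq promoters searched in the same way, 7.87% held the CHR letters, 23.5% a CCAAT box and 2.10% both. A match, or the lack of one, describes these letters in this window only. Bases after the start and other forms of the elements were not searched, and no match was read as a bound site.

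The induction and the libraries were checked first. CDKN1A, the gene of p21, stood at 1257, 1187 and 1355 normalized counts in the p21 OFF libraries and at 40470, 43863 and 46739 in the p21 ON libraries, with reads of the vector and of the endogenous gene counted together. Normalized counts are reads on a gene divided by the size factor of the library. The libraries held 12795490 to 21975045 reads on genes in p21 OFF and 12918390 to 16630552 in p21 ON. All 6 osteoblast lineage markers were above 10 normalized counts, and their sum was 71371 to 74079 in p21 OFF and 72412 to 75635 in p21 ON. Most of this sum came from ALPL and SPARC, while IBSP, which encodes bone sialoprotein, was called lower, from 129 ± 8.66 to 99.0 ± 3.20 (SD, n = 3 each; adjusted p = 0.0264 from limma). Of the markers of other cells, 0 of 4 leukocyte, 2 of 4 epithelial and 1 of 3 endothelial genes were above 10, with sums of 6.65 to 12.6, 328 to 398 and 13.3 to 22.6 in p21 OFF and of 4.87 to 16.3, 317 to 357 and 16.2 to 18.6 in p21 ON. The study's methods call the replicates biological, and the sources used here do not say whether they came from separate cultures, so p-values measure the spread between these libraries.

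Transcripts of all 6 genes fell after p21 induction, to between 29.8% (AURKB) and 47.1% (INCENP) of the p21 OFF mean. With limma on log2(normalized count + 1) and Benjamini-Hochberg adjustment over all genes tested, 6 of 6 were called lower at an adjusted p under 0.05, where 12.7% of the 13255 tested genes were called lower. The p21 ON libraries lay wholly below the p21 OFF libraries for 6 of 6, against 21.3% of tested genes, and wholly above for 0 of 6, against 19.1%. The median log2 fold change of the 6 was −1.38, beside 0.0056 over all genes tested. Together they took 0.117% of the reads in p21 OFF and 0.0495% in p21 ON. RNA of whole cultures was measured, so fewer cells in G2 and M and less of these transcripts per cell cannot be told apart.

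AURKB, the kinase of the passenger complex (GRCh37, chr17:8108051-8113918, minus strand), had 954, 979 and 844 normalized counts in p21 OFF and 278, 252 and 298 in p21 ON. The lowest p21 OFF library, replicate 3, was still far above the highest p21 ON library, replicate 3, so the groups did not overlap. Its mean fell from 926 ± 71.8 to 276 ± 23.1 (SD, n = 3 each). On the log2 scale the change was −1.74 with a standard error of 0.08, a 95% interval of −1.92 to −1.56 and an adjusted p of 5.57e-11 from limma. The fewest reads behind any of these values were 207. By log2 fold change this was the largest fall among the 13255 genes tested, and the position of AURKB was 1 or 2 in the alternatives tried except without a filter on low values, where it was 6.

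CDCA8, the borealin gene (GRCh37, chr1:38158153-38175391, plus strand), had 1456, 1444 and 1355 normalized counts in p21 OFF and 464, 492 and 509 in p21 ON. The lowest p21 OFF library was more than 2 times the highest p21 ON library. The mean fell from 1418 ± 55.0 to 489 ± 22.6 (SD, n = 3 each), with a log2 fold change of −1.54 ± 0.07 (SE) and an adjusted p of 2.53e-11 from limma, and it was the 14th largest fall. BIRC5, the gene of survivin (GRCh37, chr17:76210267-76221717, plus strand), had 4376, 4225 and 4088 normalized counts in p21 OFF and 1455, 1650 and 1546 in p21 ON. These groups were also far apart, although BIRC5 spread more among the p21 ON libraries than among the p21 OFF libraries on the log2 scale, with SDs of 0.090 and 0.049. Its mean fell from 4229 ± 144 to 1550 ± 97.4 (SD, n = 3 each), with a log2 fold change of −1.45 ± 0.06 (SE) and an adjusted p of 2.07e-11 from limma.

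INCENP, the scaffold that binds and activates Aurora B (GRCh37, chr11:61891470-61920641, plus strand), had 2065, 2508 and 2326 normalized counts in p21 OFF and 1063, 1076 and 1110 in p21 ON. The p21 OFF libraries differed more among themselves than for the other 5 genes, with an SD of 0.14 on the log2 scale, while the p21 ON libraries lay close together. The mean fell from 2300 ± 223 to 1083 ± 24.3 (SD, n = 3 each), which is −1.08 ± 0.07 (SE) on the log2 scale with a 95% interval of −1.23 to −0.93 and an adjusted p of 1.87e-09 from limma. INCENP had the smallest fall of the 6, at position 130 among the genes tested.

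AURKA, the spindle pole kinase (GRCh37, chr20:54944445-54967393, minus strand), had 1938, 1972 and 1807 normalized counts in p21 OFF and 751, 780 and 763 in p21 ON. The groups did not overlap, and the p21 ON libraries were the closest together of any of the 6 genes, with an SD of 0.027 on the log2 scale. The mean fell from 1906 ± 87.1 to 765 ± 14.5 (SD, n = 3 each), which is −1.32 ± 0.06 (SE) on the log2 scale with an adjusted p of 5.57e-11 from limma. AURKAPS1, a pseudogene of AURKA that was looked up after its values were seen, held 72.7 ± 6.63 normalized counts in p21 OFF and 45.8 ± 4.99 in p21 ON (SD, n = 3 each). These are 3.81% and 5.99% of the AURKA values. AURKAPS1 was itself called lower, with a log2 fold change of −0.66 and an adjusted p of 0.00713 from limma. How reads that could come from either copy were counted is not given in the sources used here. TPX2, which activates Aurora A (GRCh37, chr20:30327074-30389608, plus strand), had 8324, 8075 and 7947 normalized counts in p21 OFF and 3698, 3677 and 3489 in p21 ON. Both groups were tight, and TPX2 was the gene of the 6 with the most reads, 3018 to 10751 per library. Its mean fell from 8115 ± 192 to 3622 ± 115 (SD, n = 3 each), and the log2 fold change was −1.16 ± 0.06 (SE) with an adjusted p of 5.57e-11 from limma.

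**Figure D1:**
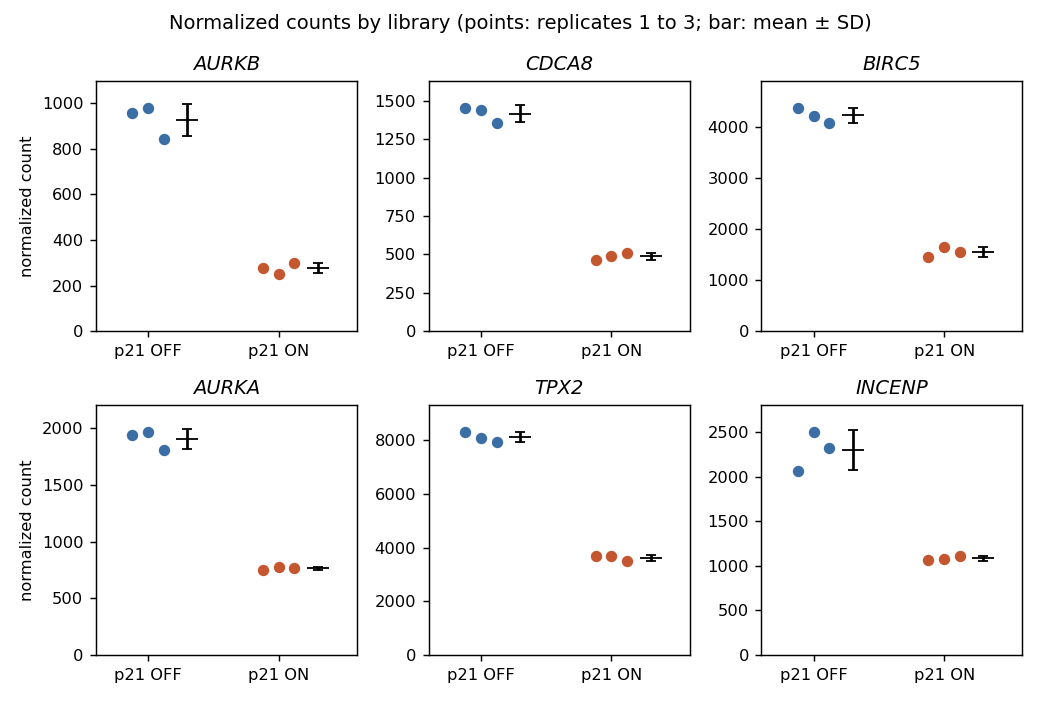
Normalized counts of the 6 genes in each library, with p21 OFF and p21 ON side by side and the mean and SD of each group (n = 3). In every panel the p21 ON libraries lie below all p21 OFF libraries, from AURKB (926 to 276) to INCENP (2300 to 1083).

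A single gene tested over 3 against 3 libraries cannot go below p = 0.1 in an exact two-sided permutation test, and each of the 6 genes reached that value. Of the p21 OFF libraries, replicate 3 had the lowest value for 5 of the 6 genes, and INCENP, the exception, was lowest in replicate 1. All 6 calls were made in each of the 19 alternatives tried. These left out each library in turn, used the replicate number as a block, or changed the scaling, filter, pseudocount, threshold or tool. The thresholds and the block leave the fold changes themselves as they were. The plot of fold changes with their intervals shows AURKB, CDCA8 and BIRC5, all of the passenger complex, at the larger end, AURKA and TPX2 next, and INCENP last.

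**Figure D2:**
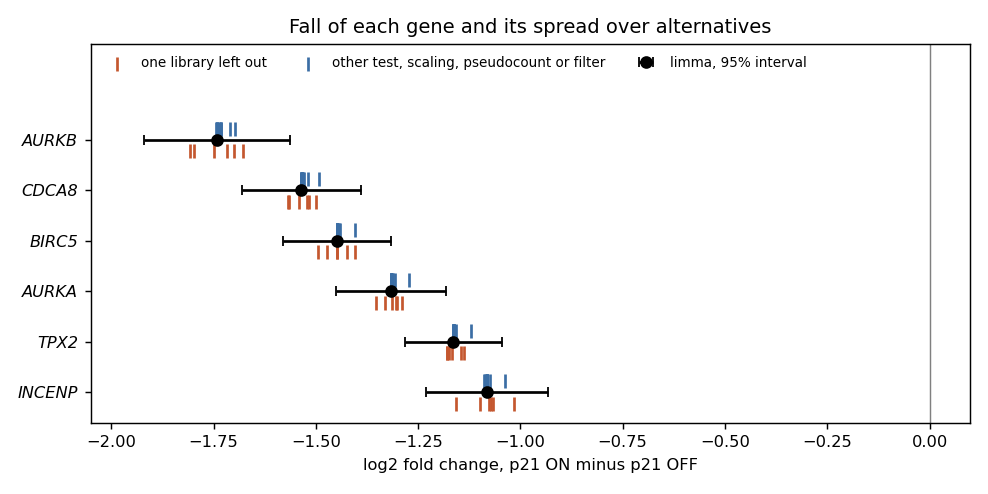
Log2 fold change of each gene, p21 ON against p21 OFF. Black points with bars are the limma estimate and its 95% interval, red ticks leave out each library in turn and blue ticks use another test, scaling, pseudocount or filter. The ticks for AURKB stay between −1.81 and −1.68 and those for INCENP between −1.16 and −1.02.

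Whether the genes fell by different amounts was asked within each library, by the log2 ratio of the normalized counts of each pair, which does not depend on the scaling of the library. In 14 of the 15 pairs the ratios of the p21 ON libraries did not overlap those of the p21 OFF libraries, where 39.5% of all pairs of tested genes, and likewise 39.5% of pairs of genes called lower, did not overlap. The pairs share genes and are not independent. Each of the 14 had an exact permutation p of 0.1, the smallest that 3 against 3 allows, and 0.107 after Benjamini-Hochberg adjustment over the 15 pairs, so the differences in these ratios did not pass the threshold and could not have done so.

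Within the passenger complex the largest shift was between the kinase and its scaffold. The log2 ratio of AURKB to INCENP was −1.31 ± 0.18 in p21 OFF and −1.97 ± 0.10 in p21 ON (SD, n = 3 each), a difference of −0.66. CDCA8 also moved against the scaffold, with a difference of 0.45 in the ratio of INCENP to CDCA8, and BIRC5 did so with −0.37 in the ratio of BIRC5 to INCENP. Of the p21 OFF libraries INCENP was lowest in replicate 1. Without that library the differences were −0.56 for AURKB to INCENP, 0.36 for INCENP to CDCA8 and −0.27 for BIRC5 to INCENP. Between the 3 other subunits the differences were smaller: −0.29 for AURKB to BIRC5, −0.21 for AURKB to CDCA8 and 0.087 for BIRC5 to CDCA8. Without p21 ON replicate 2 these were −0.18, −0.14 and 0.047. The order of AURKB to BIRC5 and BIRC5 to INCENP was not stable. Without p21 OFF replicate 1 they were −0.294 and −0.267. Without p21 ON replicate 1 they were −0.344 and −0.336, and without p21 ON replicate 3 they were −0.351 and −0.348.

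The ratio of AURKA to AURKB was 1.04 ± 0.05 in p21 OFF and 1.47 ± 0.14 in p21 ON on the log2 scale (SD, n = 3 each), a difference of 0.43 between the paralogous kinases. The ratio of AURKA to its activator TPX2 moved by −0.15. INCENP to TPX2 was the pair with overlapping groups, with a difference of 0.08 and an exact permutation p of 0.6. Its sign rested on p21 OFF replicate 1, since the difference was −0.01 without that library, 0.15 without p21 OFF replicate 2 and 0.04 without p21 ON replicate 3. These are the genes with the smallest falls of the 6.

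**Figure D3:**
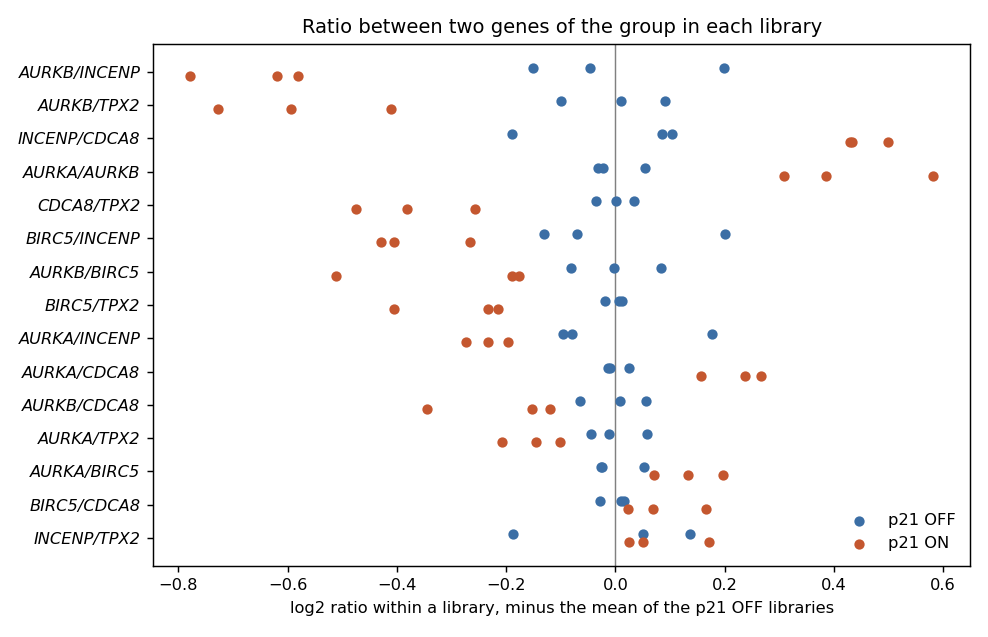
Log2 ratio of normalized counts, with 1 added to each, within a library for the 15 pairs of genes. Values are relative to the p21 OFF mean of the pair, with p21 OFF and p21 ON libraries as separate points (n = 3 each). AURKB to INCENP lies farthest below 0 (mean difference −0.66), INCENP to CDCA8 farthest above (0.45), and INCENP to TPX2 overlaps (0.08).

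Levels of different genes were compared as normalized counts per kilobase of the canonical transcript. TPX2 was highest in p21 OFF with 2337 ± 55.2 per kilobase, followed by BIRC5 with 1643 ± 56.0, AURKA with 937 ± 42.8 and AURKB with 745 ± 57.7 (SD, n = 3 each). CDCA8 (598 ± 23.2) and INCENP (559 ± 54.2) came last and overlapped each other. In p21 ON the order of the 3 highest was the same, with TPX2 at 1043 ± 33.2, BIRC5 at 602 ± 37.8 and AURKA at 376 ± 7.15 per kilobase. INCENP (263 ± 5.90) then stood above AURKB (222 ± 18.6) and CDCA8 (206 ± 9.54), whose ranges overlapped. The place of AURKB depended on the length used, since with the union of annotated exons it was the lowest of the 6 in both groups, with 413 per kilobase in p21 OFF and 123 in p21 ON.

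**Figure D4:**
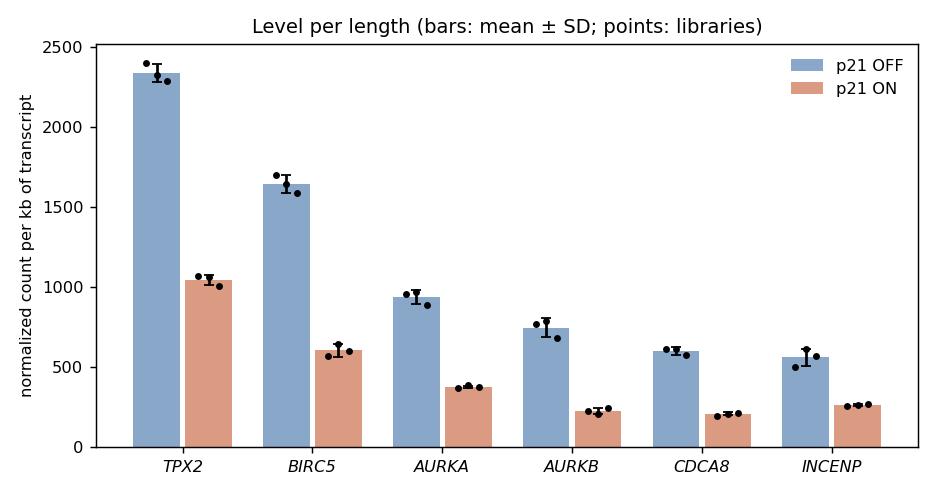
Normalized counts per kilobase of canonical transcript for the 6 genes, p21 OFF and p21 ON. Bars are means, error bars SD and points libraries (n = 3 each); TPX2 is highest in both groups (2337 and 1043) and INCENP passes AURKB and CDCA8 in p21 ON (263 against 222 and 206).

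The neighbours of the complex were described in lists of pathway genes, by counts and medians beside those of all genes tested, of which 12.7% were called lower and 10.5% higher. Of 10 genes that bring the passenger complex to chromosomes or release it to the midzone, 9 were called lower and 0 higher, with a median log2 fold change of −1.35. TTK (−1.52) and BUB1 (−1.30) are kinases, of the spindle checkpoint and of the centromeric histone mark that recruits the complex. CCNB1 (−1.39) encodes the mitotic cyclin B1, and KIF20A (−1.43) the kinesin that carries the complex to the midzone. The gene that was not called was RCC2 (−0.14, adjusted p = 0.0689 from limma).

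Of 12 Aurora B substrates 11 were called lower, with a median of −1.18. KIF2C, the microtubule depolymerase that acts in attachment correction, was at −1.50, and the kinetochore subunit NDC80 was at −1.44. The midzone motors KIF4A (−1.41) and KIF23 (−1.28) followed. CHMP4C, of the abscission checkpoint, was not called, at 46.4 ± 10.6 normalized counts in p21 OFF and 52.1 ± 18.4 in p21 ON (SD, n = 3 each).

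The lists around Aurora A were mixed. Of 8 activators and partners 4 were called lower, with a median of −0.33: TACC3 (−1.24) and CKAP5 (−0.63), which act together on spindle microtubules, the spindle pole protein WDR62 (−0.99) and the cofactor BORA (−0.78). The other 4, NEDD9, CEP192, PAK1 and AJUBA, had log2 fold changes between −0.04 and 0.05. Of 8 Aurora A substrates 4 were called lower, PLK1 (−1.44), DLGAP5 (−1.36), KIF11 (−1.09) and CDC25B (−0.85). KIF2A, NUMA1 and NDEL1 were not called, at −0.05 to −0.04. The kinase gene LATS2 was called higher, at 0.21 with an adjusted p of 0.0338 from limma. That call was not made without p21 OFF replicate 1 or 3 or without any of the p21 ON replicates, with log2 fold changes of 0.17 to 0.23 and adjusted p from 0.0654 to 0.0987 in limma.

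Of 10 genes of the ubiquitin pathway that acts on Aurora kinases and survivin, and of direct regulators listed with it, 4 were called lower. CDC20 (−1.55) and UBE2C (−1.54), a coactivator and the E2 enzyme of the anaphase-promoting complex, had log2 fold changes near that of CDCA8. FZR1, the coactivator that targets Aurora A at mitotic exit, was at −0.42 and AURKAIP1 at −0.32. The remaining 6 lay between −0.16 and 0.12. Of 15 genes of phosphatases that oppose the kinases 5 were called lower and 1 higher, with a median of −0.13. CDCA2, which brings protein phosphatase 1 to chromatin, stood apart at −1.29, while the other genes called lower, PPP1CC (−0.35), PPP2R5A (−0.25), PPP2CA (−0.24) and PPP1CA (−0.19), were closer to 0. They encode catalytic subunits of protein phosphatases 1 and 2A and, for PPP2R5A, a regulatory subunit of the latter. RIF1, which also binds protein phosphatase 1, was called higher (0.26). PPP2CA was not called without p21 ON replicate 1 (−0.21, adjusted p = 0.122 in limma) or 3 (−0.21, adjusted p = 0.106), and RIF1 was not called without p21 ON replicate 1 (0.22, adjusted p = 0.0932). The count called lower on this list was 2 without p21 ON replicate 1, 3 without p21 ON replicate 2 or 3, and 4 to 7 without a p21 OFF replicate. Calls besides that of PPP2CA were therefore lost. PPP2R5A and PPP1CA, with adjusted p of 0.0427 and 0.0327 from limma, were not followed singly in these fits.

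Of 20 other mitotic kinases 15 were called lower and 2 higher, with a median of −1.18. The lists share genes, so these counts are not separate from those above. TTK, HASPIN, CDK1 and BUB1 were also on the list of passenger complex recruitment, and PLK1 was also among the Aurora A substrates. PBK (−1.56), TTK (−1.52), HASPIN (−1.47), PLK4 (−1.46) and PLK1 (−1.44) had the largest falls, beside −1.74 for AURKB and −1.32 for AURKA, and BUB1B, a checkpoint pseudokinase, was at −1.27. NEK7, PLK3 and NEK6 were not called. PLK2 was called higher (0.48, adjusted p = 0.000701 from limma). NEK9 was called higher too (0.20, adjusted p = 0.0358 from limma), and this call was not made without p21 OFF replicate 2 or without any p21 ON replicate, with log2 fold changes of 0.19 to 0.20 and adjusted p from 0.0762 to 0.111.

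**Figure D5:**
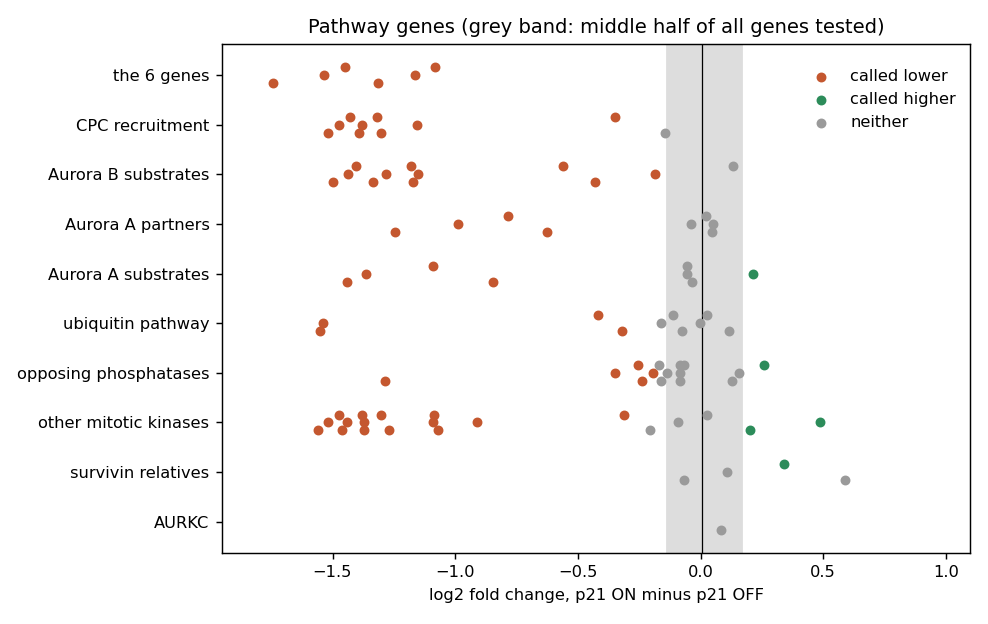
Log2 fold change, p21 ON against p21 OFF, of each tested gene in the lists of pathway genes, coloured by whether it was called lower, higher or neither by limma. The grey band runs from the lower to the upper quartile of all tested genes (−0.14 to 0.17), and most genes of the passenger complex, Aurora B substrate and mitotic kinase lists lie far below it.

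The relatives of the 6 genes by sequence family were read separately. AURKC, the meiotic Aurora kinase, was weakly expressed, with 38.9, 29.7 and 23.7 normalized counts in p21 OFF and 33.8, 29.2 and 33.3 in p21 ON. The groups overlapped, and the log2 fold change was 0.08 with a 95% interval of −0.38 to 0.55 and an adjusted p of 0.813 from limma. This interval does not reach the fall of AURKA or AURKB, and without p21 OFF replicate 3 the log2 fold change was −0.084. Of 7 inhibitor of apoptosis relatives of survivin 4 could be tested, and 0 were called lower and 1 higher. BIRC2 (−0.07) and XIAP (0.11) were not called, and neither was BIRC3 (0.59, adjusted p = 0.0534 from limma), which was called without p21 ON replicate 3 (0.74, adjusted p = 0.0457). BIRC6 was called higher (0.34, adjusted p = 0.0119 from limma), though not without p21 ON replicate 1 (0.28, adjusted p = 0.0894) or 3 (0.36, adjusted p = 0.051). NAIP was too low to be tested, with 5.02, 3.91 and 4.43 normalized counts in p21 OFF and 1.16, 0 and 0.95 in p21 ON, BIRC7 was at or below 1.26 in every library, and BIRC8 was listed at 0.

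Likeness over the libraries was described by correlation, which here mostly reflects the split between p21 OFF and p21 ON. Within p21 ON the genes did not all move together. TPX2 was highest in replicate 1 and lowest in replicate 3, while CDCA8 was lowest in replicate 1 and highest in replicate 3. The Pearson correlation of each with the mean profile of the other 5 was between 0.986 (INCENP) and 0.9994 (AURKA) over the 6 libraries. The libraries fall into 2 separate groups. Any gene with a clear fall therefore scores high, whatever the size of that fall. Outside the members, GTSE1, a microtubule-bound protein of G2 and M, and TUBB2C, a beta tubulin now named TUBB4B, were the most alike of 11392 genes compared, both at 0.9994. C15orf23, now KNSTRN and a spindle protein, and MYBL2, the B-MYB subunit of the activating MuvB complex, followed at 0.9991, then TACC3 at 0.9989 and SKA3, of the kinetochore, at 0.9988. GTSE1 had means of 1439 ± 70.9 and 599.6 ± 17.2 normalized counts (SD, n = 3 each), a fall close to that of AURKA.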

How the data were processed

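RNA of 3 p21 OFF and 3 p21 ON libraries of SaOS-2 cells was analysed, grouped by their titles. The authors sequenced stranded poly(A) libraries in a single lane, aligned the reads with STAR to hg19, obtained gene counts with HTSeq and scaled each library by its DESeq2 size factor. Per gene and library, the signal in the deposited table is this normalized count. The sources used here give neither tool versions nor the strand setting of HTSeq. Since 100% of a library's values were whole multiples of a single step (tolerance 0.01), the reads behind each value were recovered.

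Groups were compared with limma 3.58.1 (lmFit, eBayes with trend) in R 4.3.3 on log2(normalized count + 1). The fit had no covariates and took in 13255 genes whose mean was at least 10. P-values were adjusted by Benjamini-Hochberg, and genes under 0.05 were called. Because of the added 1, changes of weakly expressed genes are understated. Alternatives were edgeR 4.0.16 and DESeq2 1.42.0 on the recovered reads, other scalings, pseudocounts, filters and thresholds, the replicate number as a block, and fits that each omitted 1 library. The fits were also run on simulated counts. These had the same added spread for every gene and no deviating library, so they do not measure false calls in these data. Single values and within-library ratios were tested by exact two-sided permutation tests.

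The members, the pathway lists and the alternatives were chosen with earlier results of these data known. In each pathway list the 4 genes with the lowest adjusted p and every gene called higher were named, as were AURKC, the inhibitor of apoptosis relatives and the 6 genes most like the members among those with a mean of at least 50. PBK, HASPIN, CDK1, AURKAPS1, PPP2R5A, PPP1CA and the uncalled genes of the lists were named after their values were seen, and positions in the order of falls were added after seeing the data. Of 86 listed genes, 83 were tested and 5 were found under an older symbol. Gene positions and lengths are from GENCODE 44 on GRCh37 (hg19), promoters from RefSeq GRCh38.p14. No other gene's annotated exons overlap the canonical exons of the members. Replicates differed by more than sampling noise (chi-square per gene 2.71 to 9.28), so each library was counted. The largest values, 8.48 and 9.28, were those of p21 OFF replicate 1 against p21 OFF replicates 2 and 3.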

Additional observations from a re-analysis of the deposited data

How the results depend on the processing

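All 6 members were called lower under the 19 alternatives, with log2 fold changes of −1.81 to −1.68 for AURKB, −1.57 to −1.49 for CDCA8, −1.49 to −1.40 for BIRC5, −1.35 to −1.27 for AURKA, −1.18 to −1.12 for TPX2 and −1.16 to −1.02 for INCENP. Same-numbered libraries did not deviate together (correlations −0.057, −0.025 and −0.048), so the numbers were not read as pairs. With the replicate block 1407 genes were called higher and 1513 lower, against 1393 and 1681 without it, and no call of a member changed. Over all genes, an adjusted p under 0.01 left 882 lower and 616 higher, and 152 and 48 reached a log2 fold change of 1. With each library left out in turn these counts ran from 888 to 1662 lower and from 692 to 1488 higher, with 888 and 692 without p21 ON replicate 1 and 1076 and 739 without p21 ON replicate 3. Scaling by library size alone moved the split to 2034 higher and 1194 lower, and the median of all genes to 0.05. edgeR called 1401 higher and 1647 lower, DESeq2 1118 and 1422. On the pathway lists, the same limit on size left 1 Aurora A partner, 2 ubiquitin pathway genes and 1 opposing phosphatase gene called lower, and 0 genes called higher among Aurora A substrates, phosphatases, inhibitor of apoptosis relatives and mitotic kinases. An adjusted p under 0.01 left 2 phosphatase genes called lower, 1 kinase called higher and 0 higher among Aurora A substrates, phosphatases and inhibitor of apoptosis relatives. The replicate block left 3 phosphatase genes lower, and 0 Aurora A substrates, 1 kinase and 2 inhibitor of apoptosis relatives higher, so that LATS2 (adjusted p = 0.0626 in limma) and NEK9 (adjusted p = 0.0864) lost and BIRC3 (adjusted p = 0.0479) gained a call. Inhibitor of apoptosis relatives called higher also numbered 2 with a pseudocount of 10, at least 10 reads in every library or scaling by library size, and 1 was called lower without a filter on low values. Scaling by library size left 2 phosphatase genes lower, and DESeq2 left 1 kinase higher. With each library left out, the counts ran from 0 to 1 for Aurora A substrates higher, 2 to 7 for phosphatases lower, 0 to 1 for phosphatases higher, 0 to 1 for inhibitor of apoptosis relatives higher and 1 to 2 for kinases higher, and the log2 fold change of AURKC from −0.084 (without p21 OFF replicate 3) to 0.26 (without p21 OFF replicate 1). With the union of exons as length, the levels per kilobase in p21 OFF and p21 ON were 651 and 261 for AURKA, 413 and 123 for AURKB, 1109 and 406 for BIRC5 and 2251 and 1005 for TPX2, and 243 in p21 ON for INCENP. The cause of these shifts was not tested, except that stricter thresholds call fewer genes by construction. With 3 libraries per group, no single value or ratio can pass an exact permutation test.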
